A study of Homo sapiens with 12 samples.

Results

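The 5 genes OLR1, FOLR1, PDZK1IP1, RGL1 and TCIM were chosen from earlier results of these arrays as genes that gefitinib raised in PC9 cells grown alone and that stayed raised in co-culture. They are 5 of 13514 genes that passed a detection filter and were tested, and 7 probes are annotated to them. Each gene has 1 probe except FOLR1, which has 3. Because the gefitinib effects chose the genes, those effects and the share of the rise kept in co-culture are described here without a test. The comparison of co-culture with DMSO alone was not the one by which they were chosen, and it was tested. It is not independent of the choice, since both groups enter the share kept and a low level in co-culture raises that share.

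Total RNA came from PC9, a human non-small cell lung cancer line that carries an activating mutation of EGFR, and was hybridised to 12 Illumina bead arrays, 3 for each of 4 groups. The groups were PC9 grown alone with 0.5 µM gefitinib, PC9 grown alone with DMSO, PC9 co-cultured beside MRC-5 with 0.5 µM gefitinib, and PC9 co-cultured beside MRC-5 with no drug named. Gefitinib inhibits the EGFR kinase, and MRC-5 is a lung fibroblast line, kept in this study behind a transwell membrane with 1 µm pores for 48 h. Per the labels, which give 1 treatment text for all 12 samples, gefitinib was given after 24 h and PBS washes followed before the co-culture in EMEM with 10% FCS. The labels name RPMI for PC9 and EMEM for co-culture, so medium and fibroblasts cannot be told apart if the monocultures stayed in RPMI. The sources used here do not say whether the drug was present during the co-culture or whether the undrugged co-culture received DMSO. The co-culture titles also carry the letters WH, which the labels do not explain. Nothing in the labels says that the 3 arrays of a group came from separate cultures, so p-values measure only the spread between these arrays, which may be technical.

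EGFR signalling drives RAS, ERK and PI3K pathways that keep EGFR-mutant lung cells dividing, and blocking the kinase switches off many of its target genes while others become more abundant. The 5 genes belong to no common pathway. OLR1 encodes LOX-1, a C-type lectin-like scavenger receptor for oxidised low-density lipoprotein, best known from endothelial cells and macrophages. FOLR1 encodes folate receptor alpha, a membrane-anchored protein that carries folate into cells and is often abundant in lung adenocarcinoma. PDZK1IP1, also called MAP17, is a small membrane protein that binds the PDZ scaffold protein PDZK1 and is abundant in the proximal tubule of the kidney. RGL1 is an exchange factor of the RALGDS family, which couples RAS to the small GTPases RALA and RALB. TCIM, formerly C8orf4 or TC1, is a small regulator that binds Chibby (CBY1), an inhibitor of beta-catenin in Wnt signalling.

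Promoter sequences are shown for RGL1 and PDZK1IP1, since they let the regions upstream of 2 genes that were high in the same samples be read side by side. RefSeq promoters (GRCh38.p14) were examined for these 2 of the 5 genes only. The promoter set held no entry for OLR1 or FOLR1, and TCIM was left out of this comparison. The 250 bases before each start were searched on both strands for 8 motifs: TGANTCA (AP-1), CACGTG (E-box), TGTTTAC (forkhead), CCGGAA (ETS), GGAATG (TEAD), TTCNNNGAA (STAT), GGGCGG (GC box) and the core promoter element TATAAA. RGL1 has 2 annotated starts. The upstream one, chr1:183635859-183636108 on the plus strand, held 1 E-box, 65 to 60 bases before the start, and 1 GC box, 158 to 153 bases before it, both written in capitals and not overlapping. An E-box stood in 6.34% of all 35116 promoters and a GC box in 42.6%. The region of PDZK1IP1, chr1:47190037-47190286 on the minus strand, held none of the 8 motifs, and neither did the region before the downstream RGL1 start. GC content was 68% before the upstream RGL1 start, 50.8% before the downstream one and 62.4% for PDZK1IP1, against a median of 58% over all promoters. A match to these letters is a description, and the arrays do not tell which RGL1 start was used.
RGL1 upstream start: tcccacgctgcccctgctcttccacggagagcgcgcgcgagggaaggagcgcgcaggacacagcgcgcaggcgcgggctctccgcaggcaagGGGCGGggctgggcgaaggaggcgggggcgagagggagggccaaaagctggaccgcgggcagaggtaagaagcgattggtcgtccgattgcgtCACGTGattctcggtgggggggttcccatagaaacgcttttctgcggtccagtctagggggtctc
PDZK1IP1: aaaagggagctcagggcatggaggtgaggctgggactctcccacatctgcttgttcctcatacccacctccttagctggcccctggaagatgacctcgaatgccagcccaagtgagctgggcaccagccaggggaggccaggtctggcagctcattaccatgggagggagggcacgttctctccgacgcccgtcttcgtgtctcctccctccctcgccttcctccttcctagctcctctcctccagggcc

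Between 20917 and 22820 probes per array had a detection p-value under 0.05, the mean signal of an array lay between 371 and 444 intensity units, and its undetected probes averaged 90.5 to 95.9 units. All 10 epithelial markers were detected in every group, among them EPCAM, KRT8 and CDH1, as a carcinoma line has. Of 19 fibroblast markers, COL3A1, PDGFRB, LUM and THY1 were detected on 0 arrays, in co-culture as in monoculture, while COL1A1, COL5A1, SPARC, ACTA2 and MFAP5 were detected on all 12. Those detected on at least 2 of 3 arrays numbered 9 in co-culture with gefitinib and 6 in co-culture, and 7 both with gefitinib alone and with DMSO. The summed background-corrected signal of the 11 fibroblast markers tested was 1758 to 1964 units in co-culture with gefitinib, against 509 to 661 in co-culture, and 2944 to 3041 with gefitinib alone, against 649 to 728 with DMSO. That sum therefore moved with gefitinib in the same direction as the 5 genes in both cultures, and its part in their values was not tested. It includes TAGLN, which rose by 4.13 log2 units in monoculture and 4.79 in co-culture. Of the 11, 6 rose and 5 did not pass in monoculture, and 4 rose and 7 did not pass in co-culture. Among all genes 21.1% and 10.9% rose. Of 9 macrophage markers, TYROBP and FCER1G were detected on 0 arrays and 4 were tested. ITGAM (1.84 in monoculture, 1.04 in co-culture), CSF1R (0.97 in both) and CD14 (0.67 and 0.71) rose with gefitinib on the log2 scale. CD68 fell in monoculture (-0.37). The CD14 calls ended in 5 of 21 alternative analyses in monoculture and in 12 of 21 in co-culture. Of 7 endothelial markers 4 were tested. PECAM1 fell (-1.32 and -1.67), VWF rose in monoculture (0.65, lost in 5 of 21), CDH5 rose in co-culture (0.90) and TEK passed in neither. Among all genes 21.1% rose and 19.7% fell with gefitinib in monoculture, and 10.9% rose and 9.17% fell in co-culture. The part of both lists in the result was not tested. An array signal per RNA sample cannot tell a higher level per cell from a larger share of cells that express the gene.

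OLR1, the scavenger receptor, was above background in all 4 groups. Its unprocessed signal was 3321, 3291 and 3343 units with gefitinib alone, against 183, 172 and 189 with DMSO. In co-culture with gefitinib it was 1808, 1559 and 1288 units, against 133, 143 and 148 in co-culture. The probe was detected on all 12 arrays and none of the 4 groups overlapped. After background correction and quantile normalization the log2 level was 11.78 ± 0.016 with gefitinib alone, against 6.76 ± 0.041 with DMSO (SD, n = 3 each), a difference of 5.01 ± 0.13 (SE). In co-culture the level was 10.39 ± 0.30 with gefitinib, against 6.03 ± 0.042 without it (SD, n = 3 each), a difference of 4.37 ± 0.13 (SE). The 3 co-culture arrays with gefitinib spread more widely than those of any other group.

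**Figure D1:**
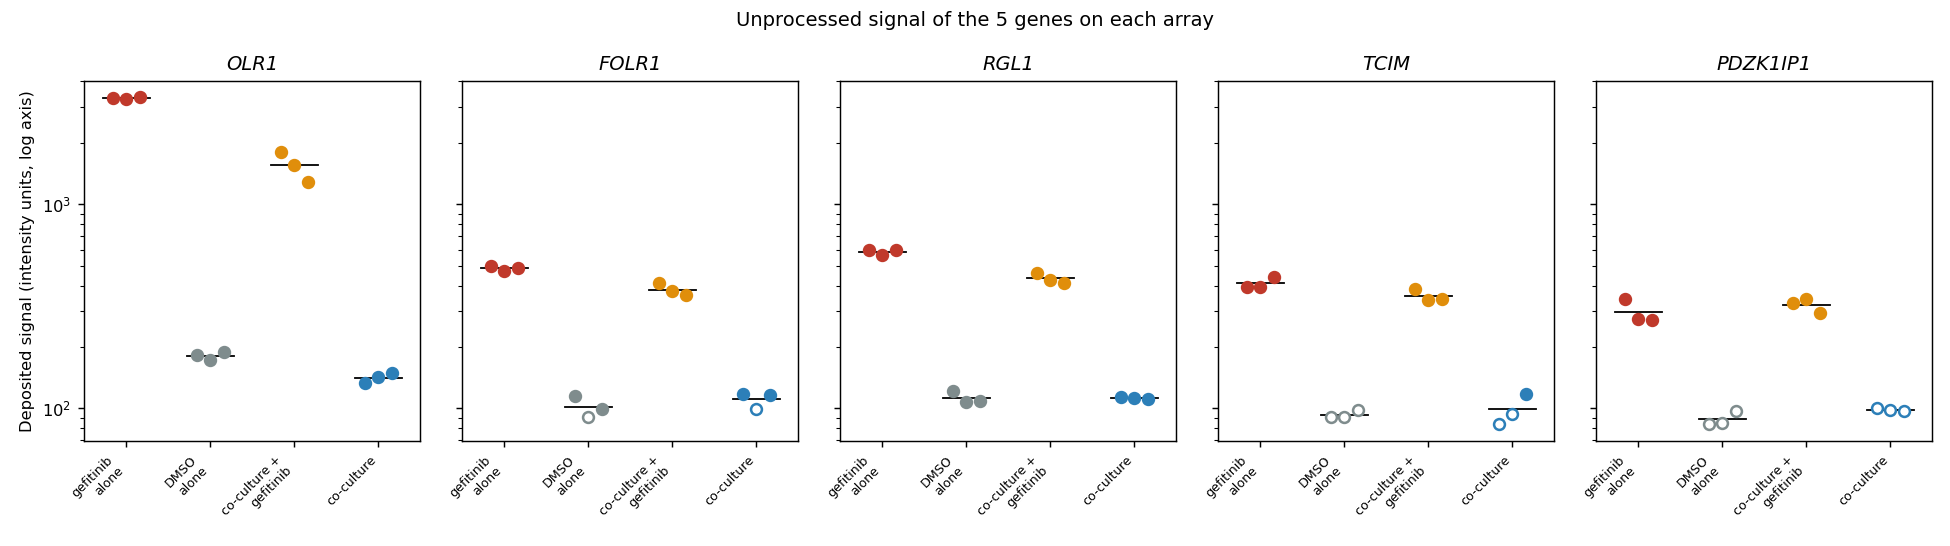
Deposited unprocessed signal (intensity units, log axis) of the probe used for each of the 5 genes on every array, with gefitinib alone, DMSO alone, co-culture with gefitinib and co-culture from left to right; filled points were detected at p under 0.05, open points were not, and bars are means of 3 arrays. OLR1 stood at 3291 to 3343 units with gefitinib alone against 172 to 189 with DMSO, and PDZK1IP1 was detected on 0 of 3 arrays in both groups without gefitinib.

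FOLR1, the second surface receptor, was near background without the drug. Its signal was 500.1, 469 and 490 units with gefitinib alone, against 115, 91.3 and 99.6 with DMSO. Co-culture with gefitinib gave 409.8, 375 and 360.3 units, against 118, 99.9 and 117 in co-culture. Each gefitinib group had it detected on 3 of 3 arrays and each group without the drug on 2 of 3, and the groups without the drug overlapped. The log2 difference was 3.93 ± 0.21 in monoculture and 2.97 ± 0.21 in co-culture (SE). A second FOLR1 probe kept 72.6% of its rise by the measure given below, with means of 375 ± 21.2 units with gefitinib alone against 94.5 ± 7.57 with DMSO, and of 327 ± 38.7 in co-culture with gefitinib against 111 ± 10.3 in co-culture (SD, n = 3 each). The third probe of FOLR1 was detected on 0 of 12 arrays.

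PDZK1IP1, the membrane partner of PDZK1, differed least between the 2 cultures. Its signal was 343, 274 and 273 units with gefitinib alone, against 83.5, 84.8 and 97.7 with DMSO. Co-culture with gefitinib gave 328, 343 and 293 units, against 101, 98.2 and 97.3 in co-culture. The 2 gefitinib groups overlapped, and the probe was detected on 3 of 3 arrays in each of them and on 0 of 3 in each group without the drug. Its rise is therefore given against a floor, the dimmest detected probes of the arrays without gefitinib after background correction. It was 9.17-fold higher with gefitinib alone than with DMSO, and 8.33-fold higher in co-culture with gefitinib than in co-culture. With no background correction the fitted rise was smaller, 1.61 log2 units in monoculture and 1.43 in co-culture, so these folds are not lower limits.

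RGL1, the RAL exchange factor, was detected on all 12 arrays, though only slightly above background without the drug. Its signal was 596, 565 and 599 units with gefitinib alone, against 122, 107 and 109 with DMSO. Co-culture with gefitinib gave 463, 425 and 413 units, against 114, 113 and 112 in co-culture. The groups without the drug overlapped, and each of them lay below both gefitinib groups. The log2 difference was 3.90 ± 0.14 in monoculture and 3.17 ± 0.14 in co-culture (SE).

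TCIM, the Chibby-binding regulator, was detected on 0 of 3 arrays with DMSO. Its signal was 394, 393 and 442 units with gefitinib alone, against 90.3, 91.3 and 98.5 with DMSO. In co-culture with gefitinib it was 384, 338 and 342 units, against 84.2, 94.0 and 118 in co-culture, where only the array at 118 units was detected. All 6 arrays with gefitinib lay above all 6 without it, on which the values overlapped. Against the same floor as for PDZK1IP1, TCIM was 14.1-fold higher with gefitinib alone than with DMSO. With no background correction that rise was 2.01 log2 units. The log2 difference in co-culture was 3.22 ± 0.18 (SE), with 2 of the 3 arrays without gefitinib below background.

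In all 5 genes both gefitinib groups lay above both groups without gefitinib on every array, as did 11.7% of all 13514 genes. Gefitinib alone lay above DMSO on every array in 25.7% of all genes, and co-culture with gefitinib above co-culture in 18.4%. By limma 40.8% of all genes were called between gefitinib alone and DMSO and 20.1% between co-culture with gefitinib and co-culture. The choice of the genes fixed this direction, so nothing is read from it. The order of the log2 levels was gefitinib alone, then co-culture with gefitinib, then the groups without the drug. The first 2 places were apart on every array for OLR1, FOLR1, RGL1 and TCIM, and overlapped for PDZK1IP1. These groups were apart in 1 direction or the other in 31.7% of all genes. The groups without the drug overlapped for FOLR1, RGL1, TCIM and PDZK1IP1, and were apart for OLR1, which lay lower in co-culture on every array, as did 8.23% of all genes.

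The share of the monoculture rise kept in co-culture was taken as the log2 difference between co-culture with gefitinib and co-culture, in percent of the log2 difference between gefitinib alone and DMSO. It was 92.1% for PDZK1IP1, 87.1% for OLR1, 82.7% for TCIM, 81.2% for RGL1 and 75.5% for FOLR1. Leaving out 1 array at a time gave 89.6% to 96.7% for PDZK1IP1, 83.9% to 89.9% for OLR1, 78.6% to 89.2% for TCIM, 78.1% to 83.5% for RGL1 and 70.0% to 80.3% for FOLR1. For TCIM and PDZK1IP1 the share rests on levels below background, and with such levels set to the dimmest detected signal of their array it was 81.9% and 95.7%.

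The share depended on the scale, and most for OLR1. As a difference of background-corrected signals rather than of log2 values, co-culture kept 38.1% of the OLR1 rise, 56.3% of the RGL1 rise, 58.7% of the FOLR1 rise, 67.3% of the TCIM rise and 92.1% of the PDZK1IP1 rise. The corrected OLR1 signal was 1657, 1297 and 1090 units in co-culture with gefitinib, against 3491, 3543 and 3467 with gefitinib alone. Its level in co-culture without the drug was also low, 47.0, 50.4 and 50.1 units, against 89.3, 94.2 and 94.8 with DMSO, and this enters the log2 difference in co-culture. Measured from DMSO instead of from co-culture, OLR1 kept 72.3% of its log2 rise and PDZK1IP1 97.8%.

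**Figure D2:**
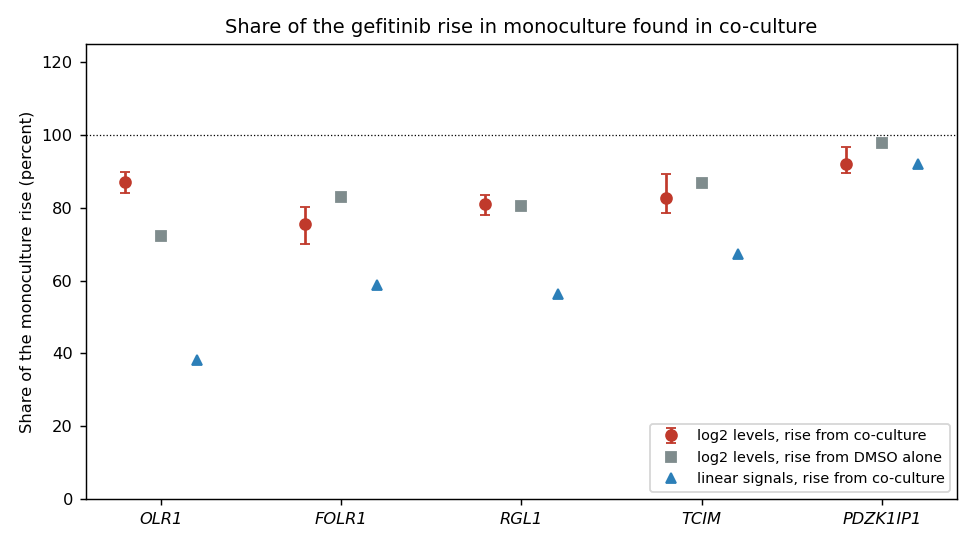
Share of the gefitinib rise in monoculture that was found in co-culture (percent) for each gene, on log2 levels with the rise measured from co-culture (circles, bars spanning the fits that leave out 1 array), on log2 levels with the rise measured from DMSO alone (squares) and on linear background-corrected signals (triangles). OLR1 ran from 87.1% on log2 levels to 38.1% on linear signals, while PDZK1IP1 had 92.1% on both.

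Of all genes tested, 2846 were called higher with gefitinib alone than with DMSO (21.1% of 13514), and 158 of these rose by at least 2 log2 units. By the size of the fitted rise OLR1 ranked 4, FOLR1 9 and RGL1 10 among all genes tested. The rises of TCIM and PDZK1IP1, which rest on undetected levels, are given no rank. The median share kept in co-culture over the 158 genes was 68.2%, with quartiles of 56.6% and 79.7%. By share among the 158, PDZK1IP1 ranked 11, OLR1 18, TCIM 33, RGL1 37 and FOLR1 54, so that FOLR1 lay between the median and the upper quartile and the other 4 above the upper quartile. On linear signals the median share was 52.5%, with quartiles of 39.3% and 63.6%. There PDZK1IP1 ranked 11, TCIM 32, FOLR1 59, RGL1 63 and OLR1 128, below the lower quartile. The choice of the genes fixed high shares on log2 levels, so these places are a description, and those of TCIM and PDZK1IP1 rest on undetected levels without the drug.

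**Figure D3:**
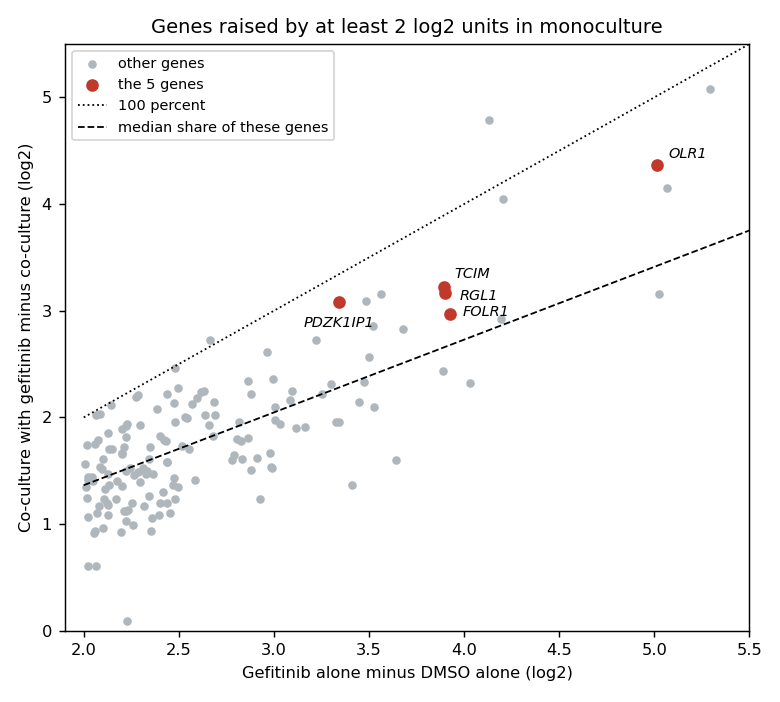
Log2 difference between co-culture with gefitinib and co-culture (vertical axis) against that between gefitinib alone and DMSO alone (horizontal axis) for the 158 genes called higher in monoculture by at least 2 log2 units, with the 5 genes in red. The dotted line marks an equal rise in both cultures and the dashed line the median share of 68.2%, above which all 5 genes lie.

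Between co-culture and DMSO alone, both without the drug, OLR1 was lower and the other 4 genes did not pass the test. OLR1 fell by 0.74 ± 0.13 log2 units in co-culture (SE, n = 3 arrays per group, adjusted p = 0.0398 by limma), and was lower on 3 of 3 arrays. The choice of the genes bears on this p-value, since a low level in co-culture raises the share kept. In this comparison 48 of 13514 genes passed, 0.355%, of which 16 were lower. The OLR1 call ended in 15 of 21 alternatives, which gave adjusted p-values of 0.0125 to 0.119 by limma. Leaving out any 1 of the 6 arrays compared ended it (0.0993 to 0.119), as did leaving out any 1 array of gefitinib alone (0.0623 to 0.0670) or array 2 of co-culture with gefitinib (0.0673). The difference stayed negative in all 21, from -0.86 to -0.35. FOLR1 differed by 0.29 ± 0.21 (adjusted p = 0.651 by limma), PDZK1IP1 by 0.19 ± 0.14 (0.665), TCIM by 0.16 ± 0.18 (0.800) and RGL1 by -0.03 ± 0.14 (0.964). The 95% interval was -0.18 to 0.76 for FOLR1 and -0.34 to 0.28 for RGL1. For PDZK1IP1, detected on 0 of the 6 arrays compared, and TCIM, detected on 1 of them, the fitted difference does not limit the change.

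Between the 2 groups treated with gefitinib, 4 of the 5 genes lay lower in co-culture on every array, which the choice of genes bears on and which was not tested. The log2 difference between co-culture with gefitinib and gefitinib alone was -1.39 ± 0.13 for OLR1, -0.76 ± 0.14 for RGL1, -0.67 ± 0.21 for FOLR1 and -0.51 ± 0.18 for TCIM (SE). OLR1 thus had a 2.62-fold lower level in co-culture with gefitinib than with gefitinib alone, and TCIM a 1.42-fold lower one. PDZK1IP1 differed by -0.07 ± 0.14, with an interval of -0.39 to 0.24. The size of these differences depends on the scaling. With median scaling the all-gene median of this comparison was 0.19, against -0.01 with quantile normalization. Of all genes, 13.5% were called in this comparison, 7.10% higher and 6.36% lower. With median scaling 91.1% of the called genes were higher, against 52.7% with quantile normalization. The gefitinib effect itself differed between the cultures in 7.27% of all genes, higher in co-culture in 3.94% and lower in 3.34%, a difference not tested for the 5 genes.

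The profiles of FOLR1 and RGL1 over the 12 arrays were the most alike among the 5 genes, with a root mean square difference of 0.205 log2 units after centring each gene. OLR1 stood farthest from the others, at 0.689 to 0.945. Outside the 5 genes, the nearest profile to PDZK1IP1 was that of the complement factor CFB (0.222 log2 units), and the nearest to RGL1 was that of the matrix protein FRAS1 (0.264). CLIC3, a chloride channel family protein, was nearest to FOLR1 (0.317), and IGFBP5, a binding protein of insulin-like growth factors, to TCIM (0.327). TAGLN, an actin-binding protein also on the fibroblast marker list, was nearest to OLR1 (0.389). FILIP1L was among the 3 nearest genes of FOLR1, RGL1 and TCIM. Like OLR1, TAGLN was lower in co-culture than with DMSO in the absence of the drug (-1.37, adjusted p = 0.00875 by limma), a call that ended in 2 of 21 alternatives, with the mean of its probes and in a fit of the compared groups alone.

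Next to OLR1 on its chromosome, 2 genes of other families were higher with gefitinib too. TMEM52B, the nearest gene on 1 side, had signals of 219, 183 and 215 units with gefitinib alone, against 87.2, 93.5 and 110 with DMSO, where it was detected on 0 of 3 arrays. Co-culture with gefitinib gave 127, 147 and 127 units, against 89.3, 95.8 and 91.2 in co-culture, where it was again detected on 0 of 3. Against the floor used for PDZK1IP1, its rise was 4.88-fold in monoculture (adjusted p = 7.36e-07 by limma on the fitted levels) and 1.93-fold in co-culture (9.54e-04). Other processing gave rises as small as 0.99 log2 units in monoculture and 0.40 in co-culture. GABARAPL1, an autophagy protein encoded beyond TMEM52B, rose by 2.25 ± 0.11 log2 units in monoculture (adjusted p = 4.69e-08) and by 1.20 ± 0.11 in co-culture (1.41e-05), a share of 53.3% on log2 levels. On the other side of OLR1, the lectin genes CLEC7A and CLEC1A did not pass the detection filter.

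Of 9 neighbours tested in all, 4 were called higher with gefitinib in monoculture and 2 lower, against 21.1% and 19.7% of all genes. Beside FOLR1, the lipid phosphatase INPPL1 rose by 0.72 ± 0.10 in monoculture and by 0.42 ± 0.10 in co-culture, ANAPC15 did not pass (-0.21 ± 0.14 and 0.06 ± 0.14), and the folate receptor genes FOLR2 and FOLR3 did not pass the detection filter. Beside RGL1, ARPC5 rose by 0.45 ± 0.12 and 0.38 ± 0.12. Median scaling ended the call in monoculture (0.15), and 11 of 21 alternatives ended that in co-culture. Beside TCIM, the secreted Wnt antagonist SFRP1 fell by 1.34 ± 0.16 in monoculture and by 0.84 ± 0.16 in co-culture, opposite to TCIM, and IDO1 and IDO2 did not pass. Beside PDZK1IP1, the centriole protein STIL fell by 1.02 ± 0.11 in monoculture and by 0.63 ± 0.11 in co-culture, where median scaling ended the call.

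The partner list of PDZK1IP1 held 1 gene that rose, its binding partner PDZK1. PDZK1 had signals of 613, 573 and 531 units with gefitinib alone, against 141, 111 and 124 with DMSO. In co-culture with gefitinib it had 361, 365 and 289 units, against 129, 113 and 126 in co-culture. It was detected on all 12 arrays, and both gefitinib groups lay above both others. It rose by 3.47 ± 0.22 log2 units in monoculture (adjusted p = 3.65e-07 by limma) and by 2.34 ± 0.22 in co-culture (2.49e-05), a share of 67.3%. Of the 9 tested genes of this list of PDZK1 ligands and proximal tubule transporters, PDZK1 rose and the organic anion pump ABCC2 fell (-0.67 in monoculture, -0.41 in co-culture, where 4 of 21 alternatives ended the call), and 7 did not pass. Among all genes 21.1% rose and 19.7% fell in monoculture, and 10.9% rose and 9.17% fell in co-culture. The list's median was -0.17 in monoculture and -0.13 in co-culture, against 0.003 and -0.01 over all genes. The related scaffold NHERF1 did not pass (-0.19 ± 0.11 in monoculture). The sodium-glucose cotransporters SLC5A1 and SLC5A2, whose transport PDZK1IP1 is known to affect, did not pass the detection filter.

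**Figure D4:**
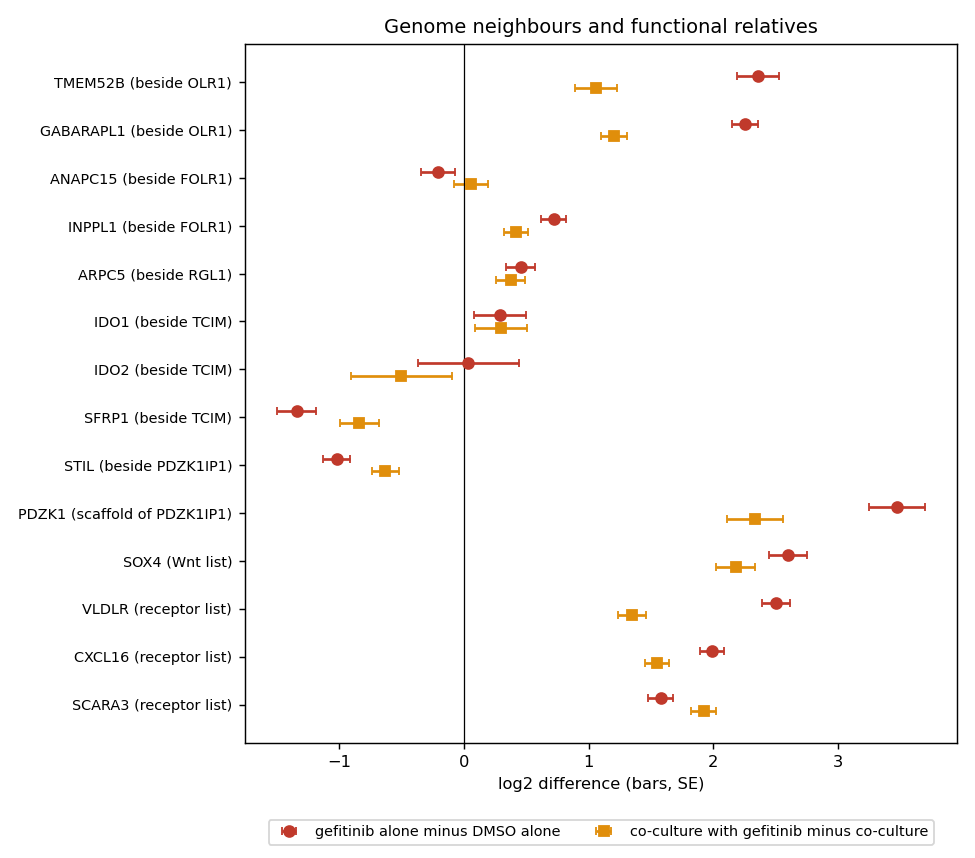
Log2 difference (SE as bars, 3 arrays per group) between gefitinib alone and DMSO alone (circles) and between co-culture with gefitinib and co-culture (squares) for the tested genome neighbours of the 5 genes and for 5 genes related to them in function. These 5 relatives all rose in both cultures, and their lists also held genes that fell, which are not drawn. PDZK1 rose by 3.47 and 2.34, while SFRP1 and STIL, beside TCIM and PDZK1IP1, were lower in both cultures.

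Other scavenger and lipoprotein receptors moved in part with OLR1. Of 11 tested, 5 rose with gefitinib in monoculture, 2 fell and 4 did not pass, against 21.1% higher and 19.7% lower among all genes, with a median of 0.38. In co-culture 4 rose and 1 fell, against 10.9% and 9.17% of all genes, with a median of 0.18. The lipoprotein receptor VLDLR rose by 2.50 ± 0.11 in monoculture and by 1.35 ± 0.11 in co-culture, and CXCL16, a membrane chemokine that also binds oxidised lipoprotein, by 1.99 ± 0.10 and 1.55 ± 0.10. The lipoprotein receptor LRP8 fell (-1.31 ± 0.11 in monoculture, -0.73 ± 0.11 in co-culture). SCARA3, a scavenger receptor-like protein, rose by 1.58 ± 0.10 and 1.92 ± 0.10. SCARA3 was also lower in co-culture than with DMSO in the absence of the drug (-0.60, adjusted p = 0.0337 by limma), a call that ended in 12 of 21 alternatives. The macrophage scavenger receptors MSR1, CD36, MARCO and CD163 did not pass the detection filter. Of the 12 lectin genes of the OLR1 cluster, 5 were tested. In monoculture CLEC2D fell (-0.43 ± 0.10), in co-culture CLEC12A fell (-0.41 ± 0.12, lost in 12 of 21 alternatives), and 4 did not pass in each. The shares lower among all genes were 19.7% and 9.17%.

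Of 19 tested genes of folate transport and one-carbon metabolism, 12 fell with gefitinib in monoculture, 1 rose (AMT, 0.50 ± 0.13) and 6 did not pass, against 19.7% lower and 21.1% higher among all genes. The list's median was -0.44. Those that fell included thymidylate synthase TYMS (-1.50 ± 0.10), the mitochondrial enzyme MTHFD2 (-1.09 ± 0.12) and the reduced folate carrier SLC19A1 (-0.95 ± 0.15). In co-culture 6 fell and 13 did not pass, against 9.17% lower among all genes, with a median of -0.25, as in TYMS (-0.44 ± 0.10), SHMT2 (-0.40 ± 0.08) and ALDH1L1 (-0.55 ± 0.17, a call that ended in 11 of 21 alternatives). With median scaling 14 fell and 0 rose in monoculture, and 0 fell in co-culture, so the AMT call and the falls in co-culture depended on the scaling.

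Of 20 tested genes of Ral signalling, to which RGL1 belongs, 6 rose with gefitinib in monoculture and 2 fell, against 21.1% and 19.7% of all genes, with a median of 0.16. In co-culture 1 rose, RRAS (0.63 ± 0.11), against 10.9% higher among all genes, with a median of 0.09. With no background correction 4 rose there, with median scaling 3 and on the authors' values 2. In monoculture RRAS rose by 0.94 ± 0.11, RALGPS1, a RAL exchange factor, by 0.91 ± 0.15 and RALGAPA2, a RAL inhibitor, by 0.79 ± 0.14. The exchange factors closest to RGL1 differed: RGL2 rose by 0.63 ± 0.12 and RALGDS by 0.40 ± 0.12 in monoculture, neither passed in co-culture (0.14 ± 0.12 and 0.07 ± 0.12), and RGL3 passed in neither. Of 13 tested Wnt genes, the pathway in which TCIM acts, 2 rose and 3 fell in monoculture, near the shares of all genes given above. Those that rose were SOX4 (2.60 ± 0.15) and TNFRSF19 (1.57 ± 0.18), and among those that fell was CTNNB1, which encodes beta-catenin (-0.84 ± 0.13). In co-culture SOX4 rose by 2.18 ± 0.15, a share of 83.8%, and CTNNB1 fell by 0.50 ± 0.13, a call lost in 4 of 21 alternatives, median scaling among them. CBY1 did not pass in either culture (-0.09 ± 0.09 and -0.15 ± 0.09).

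Of 17 tested ERK output genes, the pathway downstream of EGFR, 15 were lower with gefitinib in monoculture and 1 higher, against 19.7% and 21.1% of all genes, with a median of -1.97. The exception was the ephrin receptor EPHA4, which rose by 1.80 ± 0.20 in monoculture and by 1.58 ± 0.20 in co-culture. In co-culture 8 were lower, 2 higher and 7 did not pass, against 9.17% lower and 10.9% higher among all genes, with a median of -0.38. The second that rose was the transcription factor EGR1 (2.21 ± 0.10). Between co-culture with gefitinib and gefitinib alone, 15 of the 17 were higher and 1 lower, against 7.10% and 6.36% of all genes. The median there was 1.77, while the 5 genes had differences from -1.39 to -0.07.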

How the data were processed

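The deposited table of unprocessed values gives for each array a signal in units of intensity, not normalized between arrays per its name, and a detection p-value per probe that the authors deposited beside it. A second deposited table holds intensity values that the authors normalized by a method not given in the sources used here. From 48107 probes, 5 lacking a value were dropped, and limma 3.58.1 in R 4.3.3 (neqc, offset 16, background from the detection p-values, quantile normalization, log2) was applied. The filter left 25510 probes with a detection p under 0.05 on 3 or more of the 12 arrays, named from the platform annotation, and the brightest probe per gene was used (13514 genes). Group means were fitted over all 12 arrays (limma, 8 residual and 3.3 prior degrees of freedom). Tests are two-sided with Benjamini-Hochberg adjustment over all genes at 0.05, and the SE is the moderated one. Correlations between same-numbered arrays of different groups, as deviations from group means, ran from -0.038 to 0.039. The main fit did not pair the arrays. These correlations cannot tell whether same-numbered arrays were handled together, and the labels do not say. The rule for named genes was the 5 genes, their 3 nearest profiles, the 2 nearest protein-coding genes on either side in RefSeq, and up to 3 called members per list with the largest change. NHERF1, CBY1, RGL2, RGL3 and RALGDS are named beyond it as relatives by function. The genes and lists were chosen with earlier results of these data known. The number of arrays limits the precision. Each array was left out in turn. The other alternatives were the authors' values, signals without background correction, median scaling, no or a strict filter, the mean of probes, a replicate block, array weights and a fit of the compared groups alone. Levels floored at the dimmest detected signal and the second FOLR1 probe were added after seeing the data.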

Additional observations from a re-analysis of the deposited data

Results flagged for a closer look

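The gefitinib effect differed between co-culture and monoculture for the following 8 genes, taken from the neighbours and, by size of change, from the functional lists of the 5, by a test of the difference itself (limma, adjusted over 13514 genes, of which 7.27% passed). In co-culture minus monoculture, the difference was -1.30 for TMEM52B (adjusted p = 0.0107), -1.05 for GABARAPL1 (0.00369), -1.15 for VLDLR (0.00314), -1.27 for TNFRSF19 (0.0142) and -0.75 for AMT (0.0298) on the log2 scale. It was 1.06 for TYMS (adjusted p = 0.00202 by limma), 0.71 for MTHFD2 (0.0258) and 0.50 for RALB (0.0235). SCARB2, a scavenger receptor not among the largest changes of its list, also passed (-0.51, adjusted p = 0.0248 by limma). With median scaling 0 tested genes of the Wnt list and 0 of the folate list were called lower by this test. The calls of TNFRSF19 and AMT thus depended on the scaling. Of the scavenger receptors 1 was called lower with median scaling, against 2 with quantile normalization. The difference between the gefitinib effects was -0.96 ± 0.30 for FOLR1, -0.74 ± 0.20 for RGL1, -0.67 ± 0.26 for TCIM, -0.65 ± 0.18 for OLR1 and -0.26 ± 0.20 for PDZK1IP1 (SE). It is given without a test because the genes were chosen by it. With median scaling the rises in monoculture and co-culture were 4.81 and 4.56 for OLR1 and 3.23 and 3.22 for PDZK1IP1. The all-gene median of the difference was 0.29 there.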

How the results depend on the processing

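The rises of the 5 genes stayed above 0 in all 212 recomputed values, the smallest being 1.43 log2 units for PDZK1IP1 in co-culture with no background correction. The genes were chosen for large rises, so this is a description. Of 121 recomputed shares 109 stayed within the spread between arrays. Many of these had no room to move: no filter, the strict filter, the replicate block and the fit of the compared groups left the shares unchanged. With no background correction the share was 76.4% for OLR1 and 73.3% for RGL1, with the authors' values 77.4% and 73.2%, and with median scaling 94.9% and 89.8%, and 99.7% for PDZK1IP1. Linear signals gave 38.1% for OLR1, 58.7% for FOLR1, 56.3% for RGL1 and 67.3% for TCIM, and the rise from DMSO 72.3% for OLR1. Without single arrays the shares ran as given in the report. The count of 48 genes between co-culture and DMSO became 171 with no background correction, 119 on the authors' values, 17 under median scaling, 85 with the strict filter, 19 with the replicate block, 3 with only the compared groups and 13 to 41 without single arrays. The count of 1820 genes under gefitinib ran from 1094 to 1743 without single arrays, with 1133 without array 2 and 1094 without array 3 of co-culture with gefitinib. The OLR1 call ended with the replicate block (adjusted p = 0.0821 by limma), which passed none of the other 4 genes, with the authors' values (0.0749), no background correction (0.0684), no filter (0.0503) and the compared groups alone (0.0939). FOLR1, RGL1, TCIM and PDZK1IP1 passed between co-culture and DMSO in 0 of 85 alternatives (lowest adjusted p = 0.393 by limma). Under median scaling the all-gene median of the gefitinib effect was -0.12 in monoculture and 0.13 in co-culture. The share of the called genes that were higher in co-culture than with DMSO was 35.3%, against 66.7% with quantile normalization. For the gefitinib effect it was 33.0% in monoculture, against 51.6%, and 83.8% in co-culture, against 54.3%. Between the 2 gefitinib groups it was 91.1%, against 52.7%. The all-gene shares higher and lower set beside the lists thus depend on the scaling. Levels below background limit FOLR1, TCIM and PDZK1IP1 without the drug. The cause of these shifts was not tested.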
